A study of Mus musculus with 12 samples.

Results

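Expression of 7 genes was followed in 3 populations of mouse fetal liver cells: the paralogous transcriptional repressors Gfi1 and Gfi1b, and the corepressor genes Kdm1a, Rcor1, Rcor3, Hdac1 and Hdac2. The genes were chosen by name, as 7 of 19937 genes represented on the arrays by a probe set with 1 gene symbol, and where a gene had several such probe sets, the one brightest on average across the 12 arrays was read. All 7 genes were among the 12066 tested, that is, their mean in at least 1 population reached 6.18 on the log2 scale, a limit set by olfactory receptor genes. Megakaryocytes (MEG) were grown in culture from KIT-positive fetal liver progenitors with stem cell factor and thrombopoietin and collected on CD41 beads, erythroblasts (ERY) were taken directly from the liver by Ter119 and not cultured, and hematopoietic stem/progenitor cells (HSPC, named hematopoietic stem cells in the sample labels) were uncultured lineage-negative cells sorted for Sca1. All 3 populations came from fetal liver at E14.5, with 4 arrays each, described as biological replicates. No genotype, strain or treatment distinguishes the groups, and the culture of MEG cannot be told apart from their lineage. Each value is an RMA log2 expression value, so that a difference of 1 is a 2-fold difference. Values of different probe sets are not on a common scale, and levels are therefore compared only within a gene.

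GFI1 and GFI1B are zinc finger proteins that bind the same AATC-containing DNA element and repress transcription through an N-terminal SNAG domain. The SNAG domain recruits KDM1A (LSD1), a histone lysine demethylase, together with a CoREST scaffold protein (RCOR1 or RCOR3) and the histone deacetylases HDAC1 and HDAC2. In the mouse, GFI1 acts in stem cells, lymphoid cells and granulocytic cells, GFI1B is required for the erythroid and megakaryocytic lineages, and each protein can repress its own gene and that of its paralog.

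Because both factors can bind their own genes, the 250 bases before an annotated start of each are shown with matches to AATC, the core of the GFI1 element, in capitals. Matches to the longer AAATCA, which contains AATC, and to GATAA, the core of a GATA factor element, are in capitals too. Searches covered both strands, so that GATT counts as a match to AATC, the letters TGATTT as a match to AAATCA, and likewise the letters TTATC as a match to GATAA. The sequences are from RefSeq on GRCm38.p6, read 5′ to 3′ on the strand of the gene, which is the minus strand for both (chr5:107725806-107726055 for Gfi1 and chr2:28621983-28622232 for Gfi1b).
Gfi1: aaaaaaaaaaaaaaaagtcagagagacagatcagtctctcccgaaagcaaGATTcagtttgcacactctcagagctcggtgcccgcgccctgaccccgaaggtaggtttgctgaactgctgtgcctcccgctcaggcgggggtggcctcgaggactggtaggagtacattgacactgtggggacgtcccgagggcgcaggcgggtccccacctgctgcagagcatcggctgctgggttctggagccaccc
Gfi1b: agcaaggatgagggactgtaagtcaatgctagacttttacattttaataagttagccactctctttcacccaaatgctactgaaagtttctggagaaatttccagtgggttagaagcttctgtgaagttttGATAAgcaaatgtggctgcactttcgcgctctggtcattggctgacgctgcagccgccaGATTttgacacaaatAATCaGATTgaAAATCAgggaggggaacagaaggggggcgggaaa
The Gfi1 window held 1 AATC match, 200 bases before the start, and no AAATCA or GATAA. A second annotated start of Gfi1, whose window is not shown (chr5:107724344-107724593), held none of the motifs. The Gfi1b window held 4 AATC matches, at 60, 45, 40 and 33 bases before the start. The last of these lies within the only AAATCA match, and a GATAA stood 119 bases before the start. Among 32851 promoter windows of the same length, 69.0% held AATC at least once, 12.4% AAATCA and 22.6% GATAA. The share of windows with 4 AATC matches was not counted. Of the letters, 44.4% were G or C in the Gfi1b window and 59.2% in the Gfi1 window shown. A match is a description of the letters and not a measured binding site. Of the other 5 genes, the window of Kdm1a held 1 AATC match, those of Rcor1, Rcor3 and Hdac2 held none, and Hdac1 had no entry.

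The populations carried the markers of their names. The median level of 5 megakaryocyte markers lay between 12.78 and 12.85 on the MEG arrays, between 7.41 and 8.30 on the ERY arrays and between 7.88 and 9.52 on the HSPC arrays, and 4 erythroid markers had medians of 12.50 to 12.60 in ERY against 5.91 to 7.36 in HSPC. The progenitor markers Cd34, Kit and Flt3 had medians of 10.02 to 11.06 in HSPC, and the gene for the sorted Sca1 antigen, Ly6a, was not matched. The 7 neutrophil granule markers had medians of 5.63 to 7.81 in MEG and 5.998 to 6.97 in ERY, against 11.25 to 11.95 in HSPC. ERY also carried the highest levels of 6 hepatocyte markers, with medians of 10.95 to 11.39, against 8.61 to 10.68 in HSPC and 5.63 to 6.12 in MEG. The same held for 6 macrophage markers, with medians of 8.32 to 9.31 in ERY, 6.44 to 7.11 in HSPC and 6.39 to 7.52 in MEG. Replicates varied more in HSPC and MEG than in ERY: the median SD over the genes tested was 0.32 in MEG, 0.15 in ERY and 0.37 in HSPC. A single axis, which set HSPC arrays 1 and 2 apart from HSPC arrays 3 and 4, held 93.1% of the variance among the HSPC arrays, so the changes of the 7 genes against HSPC are given below with and without these arrays, and those of other named genes where a call changed. This split was read from these same values. Adjusted p-values without 2 of the HSPC arrays therefore show how far a call depends on those arrays and are not separate evidence for a change.

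Gfi1 was repressed in both lineages. Its means there lay under the expression limit, so that only a bound can be given, and it was at least 3.13-fold lower in MEG and in ERY than in HSPC, with the limit of 6.18 in place of the lineage mean. Gfi1b was well above the expression limit in all 3 populations and highest in ERY. With all HSPC arrays, Rcor1 and Rcor3 rose in both lineages, while Kdm1a, Hdac1 and Hdac2 did not pass the test against HSPC in either. This contrast depended on the HSPC arrays used. Without HSPC arrays 3 and 4, only the rise of Rcor3 in MEG was kept among these 5 corepressor genes. Without HSPC arrays 1 and 2, Kdm1a and Hdac2 also rose in both lineages, and Hdac1 in ERY. Rose and fell are used for an adjusted p under 0.05, and induced and repressed for a change that was also over 2-fold.

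**Figure D1:**
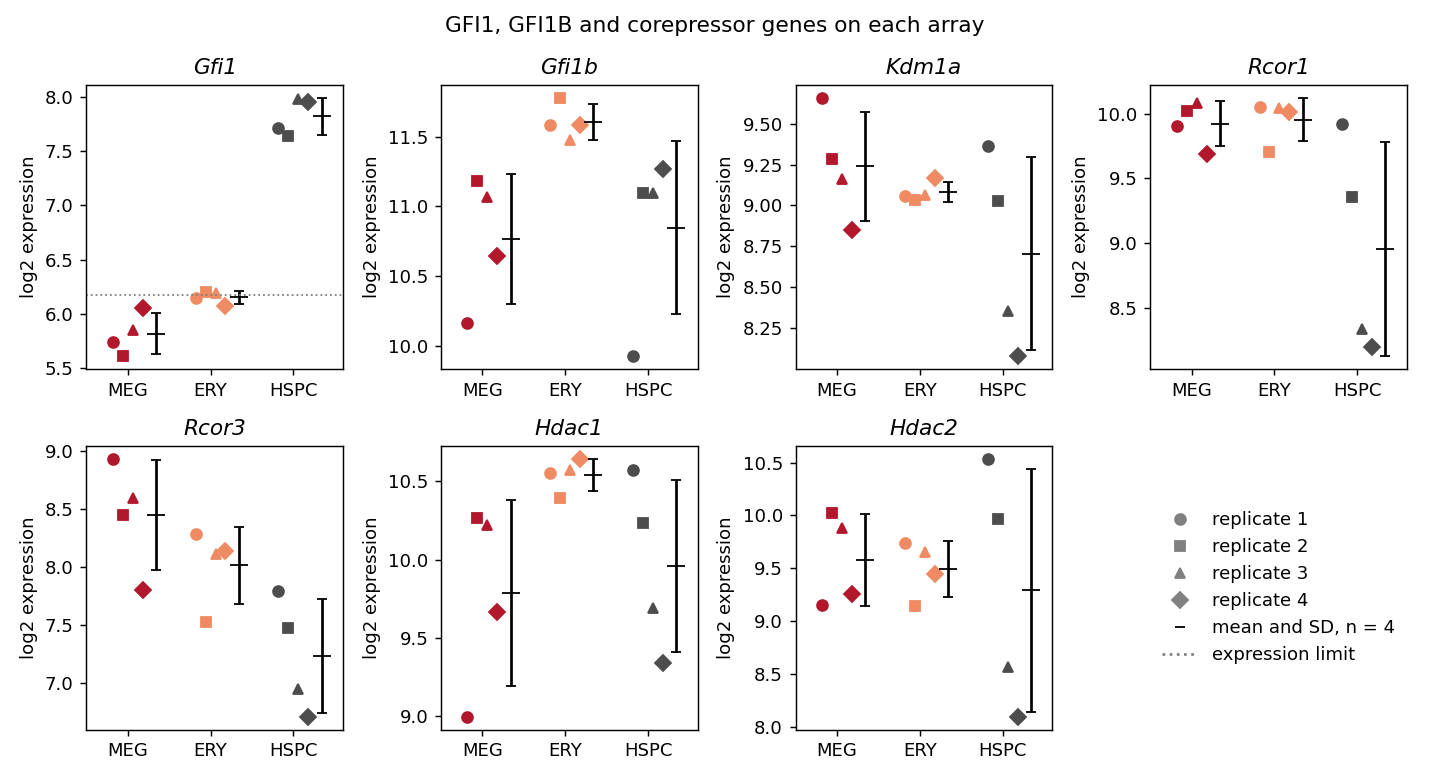
Log2 expression (y axes) of the 7 genes on each of the 12 arrays (x axes: MEG, ERY and HSPC), with marker shapes for replicates 1 to 4, bars for the mean and SD (n = 4) and the expression limit of 6.18 as a dotted line in the Gfi1 panel. Every HSPC array lies above every MEG and ERY array for Gfi1. The HSPC arrays of the 5 corepressor genes have SDs of 0.49 (Rcor3) to 1.15 (Hdac2).

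Gfi1 lies on chromosome 5 (chr5:107716655-107725805, GRCm38.p6). Its log2 levels were 5.74, 5.61, 5.85 and 6.06 on the 4 MEG arrays and 6.14, 6.20, 6.19 and 6.07 on the 4 ERY arrays, against 7.71, 7.64, 7.98 and 7.95 on the 4 HSPC arrays. The HSPC arrays thus lay above all arrays of both lineages, without overlap. The 4 MEG arrays and ERY arrays 1 and 4 were below the expression limit of 6.18, so that Gfi1 was in the test through its level in HSPC and had to differ, and the measured changes below rest on lineage means under that limit. The mean was 5.82 ± 0.19 in MEG against 7.82 ± 0.17 in HSPC (SD, n = 4 each), a measured log2 fold change of -2.01 (SE 0.15, 95% interval -2.34 to -1.67, limma adjusted p = 5.2e-07). In ERY the mean was 6.15 ± 0.06 (SD, n = 4), a log2 fold change of -1.67 against HSPC (SE 0.15, 95% interval -2.004 to -1.34, adjusted p = 1.6e-06). Both comparisons share the HSPC arrays. The call was kept under each of the 28 alternatives in both lineages, with changes of -2.26 to -1.53 in MEG and -1.82 to -1.23 in ERY. They were -2.15 in MEG and -1.82 in ERY with HSPC arrays 1 and 2 left out, and with HSPC arrays 3 and 4 left out -1.86 in MEG and -1.53 in ERY. Of 7 neutrophil granule markers, the 5 that were tested fell in both lineages, with a median change of -4.80 in MEG and -5.20 in ERY. Over all genes tested, 32.7% fell in MEG and 32.6% in ERY. The other 2 markers, Camp and Ltf, did not reach the expression limit in any population mean and did not go the same way. Camp lay between 5.89 and 6.52 in MEG and between 5.61 and 6.10 in HSPC. Ltf lay between 5.23 and 7.31 in MEG and between 5.265 and 5.59 in HSPC. On MEG array 3 the neutrophil granule gene Mpo reached 10.87. Gfi1 was at 5.85 there, under the expression limit as on every MEG array, so that nothing is read from this array. The part of cells with neutrophil granule genes in the fall of Gfi1 was not tested. In these bulk samples fewer cells of a type and less RNA per cell cannot be told apart.

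Gfi1b lies on chromosome 2 (chr2:28609450-28621982). Its levels were 10.16, 11.19, 11.07 and 10.65 in MEG and 11.58, 11.78, 11.48 and 11.58 in ERY, against 9.93, 11.10, 11.10 and 11.27 in HSPC. All ERY arrays lay above all arrays of MEG and HSPC, and the first replicates of MEG and HSPC were the lowest values of their populations. The mean was 11.61 ± 0.13 in ERY against 10.85 ± 0.62 in HSPC (SD, n = 4 each), a rise of 0.76 (SE 0.29, 95% interval 0.13 to 1.39, adjusted p = 0.0434). This rise leaned on HSPC array 1, without which it was 0.45 with an adjusted p of 0.0983, and the call was lost in 9 of the 28 alternatives, among them each fit without 1 ERY array and the fit without MEG array 4. It was 0.42 (adjusted p = 0.168) with HSPC arrays 1 and 2 left out and 1.10 (adjusted p = 0.0203) with HSPC arrays 3 and 4 left out. HSPC array 1 also stood apart in lineage markers, with a megakaryocyte median of 7.88 against 9.09 to 9.52 on the other HSPC arrays and an erythroid median of 7.36 against 5.91 to 6.13, and their part in its Gfi1b level was not tested. All 6 hepatocyte and all 6 macrophage markers also rose in ERY against HSPC, with median changes of 1.99 and 1.87, and their part in the rise of Gfi1b was not tested. In MEG the mean of 10.77 ± 0.46 was -0.08 from HSPC (95% interval -0.71 to 0.55, adjusted p = 0.830), with -0.42 (adjusted p = 0.164) and 0.26 (adjusted p = 0.571) when HSPC arrays 1 and 2 or HSPC arrays 3 and 4 were left out. Gfi1b was lower in MEG than in ERY by 0.84 (log2 fold change -0.84, SE 0.29, adjusted p = 0.0342). That call was lost in 8 alternatives, among them the fit without MEG array 1 (-0.64, adjusted p = 0.0995), the fit without MEG array 4 and each fit without 1 ERY array.

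The 2 paralogs were also set against each other within each array, where a difference of 2 probe sets has no meaning as a level but can be compared between populations. Gfi1b minus Gfi1 was 4.42, 5.58, 5.22 and 4.59 on the MEG arrays and 5.44, 5.58, 5.29 and 5.51 on the ERY arrays, against 2.21, 3.45, 3.12 and 3.32 on the HSPC arrays. All arrays of both lineages lay above all HSPC arrays. This separation follows in part from how Gfi1 entered the test, since its lineage means lay under the limit. The measured mean difference was larger by 1.93 in MEG and by 2.43 in ERY than in HSPC, and with Gfi1 set to no less than the limit on every array it was larger by 1.56 in MEG and by 2.40 in ERY. Without HSPC arrays 1 and 2 it was larger by 1.73 in MEG and 2.24 in ERY, and with HSPC arrays 3 and 4 left out by 2.12 in MEG and 2.62 in ERY. With all HSPC arrays the two-sided exact permutation test gave p = 0.0286 in MEG and in ERY, the smallest that 4 arrays against 4 allow. After adjustment over the 9 paralog tests it was 0.0857, so neither passed the threshold. With 2 HSPC arrays left out, the arrays of both lineages still lay above the remaining HSPC arrays. The same permutation test then gave an unadjusted p of 0.133 in both lineages, the smallest that 4 arrays against 2 allow. Between MEG and ERY the difference changed by -0.51 (exact permutation p = 0.143, adjusted 0.257), with overlapping arrays.

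**Figure D2:**
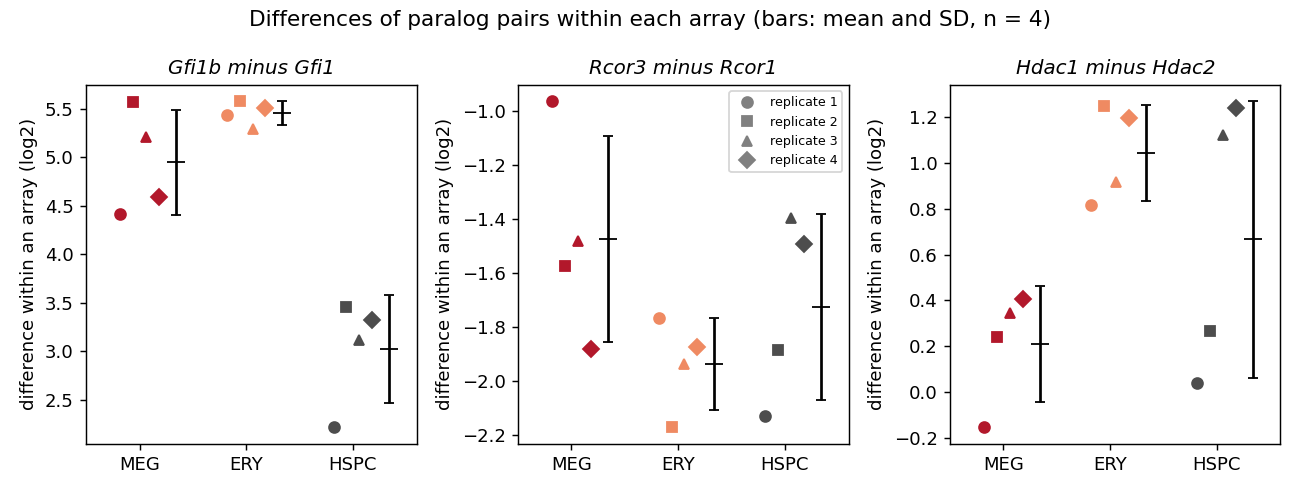
Difference in log2 expression between 2 paralogs on the same array (y axes) in MEG, ERY and HSPC (x axes), with marker shapes for replicates and bars for the mean and SD (n = 4). Gfi1b minus Gfi1 separates both lineages from HSPC, Rcor3 minus Rcor1 overlaps in all populations, and Hdac1 minus Hdac2 separates MEG from ERY.

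Rcor1 encodes the CoREST scaffold that joins KDM1A to the deacetylases and allows it to act on nucleosomes. Its levels (chr12:111039367-111115902) were 9.90, 10.02, 10.08 and 9.69 in MEG and 10.05, 9.70, 10.05 and 10.01 in ERY, against 9.92, 9.36, 8.34 and 8.20 in HSPC. Both lineages lay close together, and HSPC array 1 fell among them while HSPC arrays 3 and 4 were far lower. The mean rose to 9.92 ± 0.17 in MEG and to 9.95 ± 0.17 in ERY, against 8.96 ± 0.82 in HSPC (SD, n = 4 each). The log2 fold changes were 0.97 in MEG (SE 0.32, adjusted p = 0.0204) and 0.996 in ERY (SE 0.32, adjusted p = 0.0173). Both lay just under the 2-fold threshold, at 1.95-fold in MEG and 1.99-fold in ERY. The rise rested on HSPC arrays 3 and 4: with them left out it was 0.28 in MEG (adjusted p = 0.296) and 0.31 in ERY (adjusted p = 0.236), and leaving out either of them alone also took both calls below the threshold. With HSPC arrays 1 and 2 left out instead, it was 1.65 in MEG and 1.68 in ERY. The MEG call was also lost with MEG arrays 1 and 3 left out (0.90, adjusted p = 0.104).

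Rcor3 encodes a related scaffold that binds KDM1A and can compete with RCOR1. Its levels (chr1:192098546-192138074) were 8.94, 8.45, 8.60 and 7.81 in MEG and 8.28, 7.53, 8.11 and 8.14 in ERY, against 7.79, 7.48, 6.95 and 6.71 in HSPC. The lowest MEG array, 7.81, lay just above the highest HSPC array, 7.79, whereas ERY array 2 fell within the HSPC range. The mean rose to 8.45 ± 0.47 in MEG against 7.23 ± 0.49 in HSPC (SD, n = 4 each), a log2 fold change of 1.22 (SE 0.29, 95% interval 0.60 to 1.83, adjusted p = 0.0031), and Rcor3 was the only member induced in MEG. The adjusted p stayed under 0.05 in all 28 alternatives. The change was no longer over 2-fold with HSPC arrays 3 and 4 left out (0.81, adjusted p = 0.0486) or with MEG arrays 1 and 3 left out (0.90, adjusted p = 0.0480). In ERY the mean of 8.02 ± 0.33 was 0.79 above HSPC (SE 0.29, adjusted p = 0.0334), and the call was lost in 7 alternatives, among them each fit without ERY array 1, 3 or 4 or HSPC array 3 or 4. It was 0.38 (adjusted p = 0.318) when HSPC arrays 3 and 4 were both left out. Rcor3 minus Rcor1 averaged -1.47 ± 0.38 in MEG, -1.94 ± 0.17 in ERY and -1.73 ± 0.34 in HSPC (SD, n = 4 each). The 3 pairs of populations overlapped in this difference, with exact permutation p-values of 0.371 for MEG against HSPC, 0.286 for ERY against HSPC and 0.0857 for MEG against ERY. The change in this difference was 0.25 in MEG and -0.21 in ERY, with -0.03 in MEG and -0.49 in ERY when HSPC arrays 1 and 2 were left out and 0.53 in MEG and 0.07 in ERY when HSPC arrays 3 and 4 were.

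Kdm1a encodes the demethylase itself and was the steadiest of the 5 corepressor genes on the ERY arrays, with an SD of 0.06. Its levels (chr4:136550533-136602787) were 9.66, 9.29, 9.16 and 8.85 in MEG and 9.06, 9.04, 9.07 and 9.17 in ERY, against 9.36, 9.03, 8.36 and 8.08 in HSPC. The populations overlapped. The means of 9.24 ± 0.33 in MEG and 9.08 ± 0.06 in ERY lay above 8.71 ± 0.59 in HSPC (SD, n = 4 each), by 0.53 in MEG (95% interval -0.03 to 1.10, adjusted p = 0.103) and 0.38 in ERY (95% interval -0.19 to 0.94, adjusted p = 0.251), and neither passed the test. With HSPC arrays 1 and 2 left out the changes were 1.02 in MEG (adjusted p = 0.00104) and 0.86 in ERY (adjusted p = 0.00315), and with HSPC arrays 3 and 4 left out they were 0.0446 in MEG (adjusted p = 0.887) and -0.11 in ERY (adjusted p = 0.690).

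Hdac1 and Hdac2 encode the paired class I deacetylases of the complex, which are shared with the NuRD and SIN3 complexes. Hdac1 (chr4:129516104-129542646) had levels of 8.997, 10.27, 10.22 and 9.66 in MEG and 10.56, 10.39, 10.57 and 10.64 in ERY, against 10.57, 10.24, 9.69 and 9.34 in HSPC. All ERY arrays lay above all MEG arrays, and the HSPC arrays spanned much of both ranges. The means were 9.79 ± 0.59 in MEG, 10.54 ± 0.10 in ERY and 9.96 ± 0.55 in HSPC (SD, n = 4 each). The changes were -0.17 in MEG (95% interval -0.83 to 0.48, adjusted p = 0.655) and 0.58 in ERY (95% interval -0.07 to 1.23, adjusted p = 0.126) against HSPC, and -0.75 in MEG against ERY (95% interval -1.41 to -0.10, adjusted p = 0.0629). None passed the test. With HSPC arrays 1 and 2 left out the changes were 0.27 in MEG (adjusted p = 0.450) and 1.03 in ERY (adjusted p = 0.0121), and with HSPC arrays 3 and 4 left out they were -0.62 in MEG (adjusted p = 0.134) and 0.14 in ERY (adjusted p = 0.739). The change in MEG against ERY passed in 9 of the 28 alternatives, among them the fit of only the 8 arrays compared. In MEG against HSPC the change turned to 0.51 with array weights (adjusted p = 0.0069). Hdac1 was the only member with 2 probe sets. The second, which had the lower mean, gave changes of -0.29 in MEG against HSPC (adjusted p = 0.521), 0.65 in ERY against HSPC (adjusted p = 0.148) and -0.93 in MEG against ERY (adjusted p = 0.0518), in the same directions. The annotation also lists a pseudogene, Hdac1-ps (chr17:78491565-78493541), and whether either probe set takes signal from it was not tested.

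Hdac2 (chr10:36974297-37001889) had levels of 9.15, 10.02, 9.88 and 9.26 in MEG and 9.74, 9.14, 9.65 and 9.45 in ERY, against 10.54, 9.97, 8.57 and 8.10 in HSPC. The HSPC arrays reached both above and below all arrays of the lineages. With means of 9.58 ± 0.44 in MEG, 9.50 ± 0.27 in ERY and 9.29 ± 1.15 in HSPC (SD, n = 4 each), the changes were 0.29 in MEG (95% interval -0.67 to 1.24, adjusted p = 0.611) and 0.20 in ERY (95% interval -0.75 to 1.16, adjusted p = 0.734). These intervals do not exclude a 1.5-fold change in either direction. Hdac1 minus Hdac2 averaged 0.21 ± 0.25 in MEG and 1.05 ± 0.21 in ERY, against 0.67 ± 0.60 in HSPC (SD, n = 4 each). MEG lay below ERY on all arrays, by 0.84 (difference -0.84, exact permutation p = 0.0286, adjusted 0.0857), and the differences of the lineages from HSPC did not pass (exact permutation p = 0.257 for MEG and 0.314 for ERY). The changes from HSPC in this difference were -0.46 in MEG and 0.38 in ERY, with -0.97 in MEG and -0.14 in ERY when HSPC arrays 1 and 2 were left out and 0.06 in MEG and 0.89 in ERY when HSPC arrays 3 and 4 were.

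**Figure D3:**
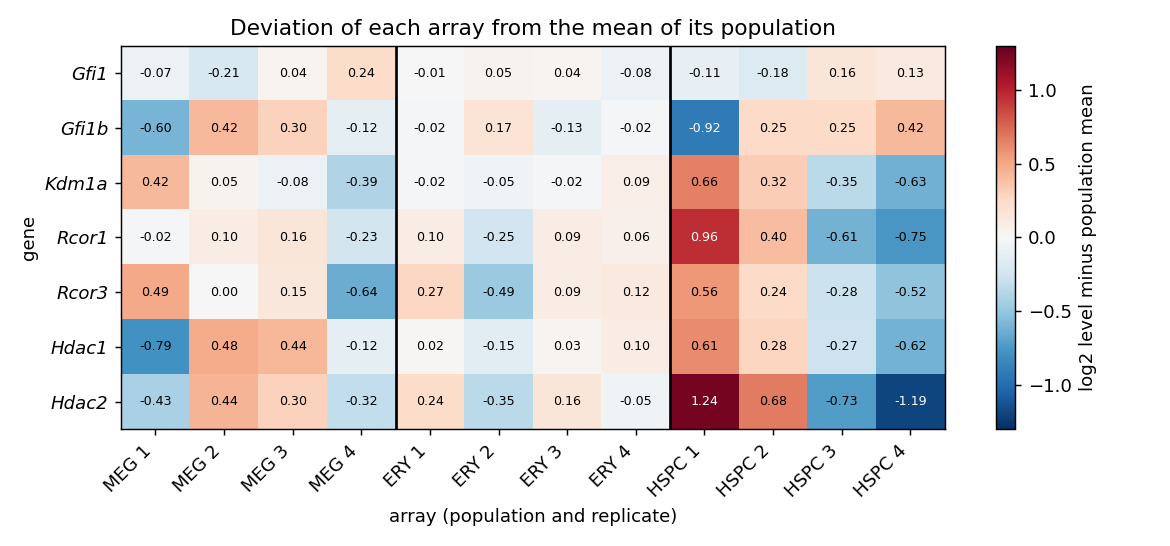
Deviation of each array (columns) from the mean of its own population for the 7 genes (rows), in log2 units, red above and blue below the mean. On the HSPC arrays the 5 corepressor genes share 1 pattern, positive on arrays 1 and 2 and negative on arrays 3 and 4, with 1.24 for Hdac2 on array 1 and -1.19 on array 4, while Gfi1b is at -0.92 on array 1.

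The corepressor genes varied together among the HSPC arrays. Each of the 5 was highest on HSPC array 1, followed by arrays 2, 3 and 4. The mean of arrays 1 and 2 exceeded that of arrays 3 and 4 by 1.92 for Hdac2, 1.37 for Rcor1, 0.98 for Kdm1a, 0.89 for Hdac1 and 0.81 for Rcor3. Over all genes tested the median of this difference was -0.09, and 30.2% of genes exceeded 0.5, so that the split was shared by much of the transcriptome. Gfi1b differed by -0.67 and Gfi1 by -0.29, the other way. Hdac2 had an HSPC SD exceeded by 3.51% of the genes tested and Rcor1 one exceeded by 11.3%. The share was 24.2% for Kdm1a, 27.7% for Hdac1 and 34.4% for Rcor3, beside 21.7% for Gfi1b and 85.0% for Gfi1. Some markers had the same order of HSPC arrays: from array 1 to array 4, Kit was at 11.06, 10.82, 10.22 and 10.02, Flt3 at 10.35, 10.03, 9.28 and 8.87, and the lymphoid genes Il7r at 8.77, 7.98, 7.02 and 6.53 and Ebf1 at 7.93, 7.77, 6.18 and 5.82. Rag1 and Rag2 had this order too. The lymphoid gene Cd3e ran the other way, at 5.96, 6.06, 6.33 and 6.60, and Cd79a was lowest on array 1, at 6.48, 7.71, 7.155 and 7.45. Cd34 lay between 12.15 and 12.30 on all 4 HSPC arrays, and the median of 6 lymphoid markers was 6.90, 7.19, 6.26 and 6.32. The part of these markers in the levels of the corepressor genes was not tested, and the labels name no batch for these arrays. The direction of Hdac2 turned with these arrays: against HSPC arrays 3 and 4 alone it was higher by 1.25 in MEG (adjusted p = 0.00208) and 1.16 in ERY (adjusted p = 0.00323), and against HSPC arrays 1 and 2 alone the changes were -0.67 in MEG (adjusted p = 0.0823) and -0.76 in ERY (adjusted p = 0.0518). Since the arrays were set apart by their own values, these p-values describe the dependence of Hdac2 on them and no more. In ERY the 5 corepressor genes were all lowest on array 2, with smaller deviations, from -0.047 for Kdm1a to -0.49 for Rcor3. The share of all genes tested that were lowest on this array was not counted, so nothing particular to the 5 genes is read from it.

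**Figure D4:**
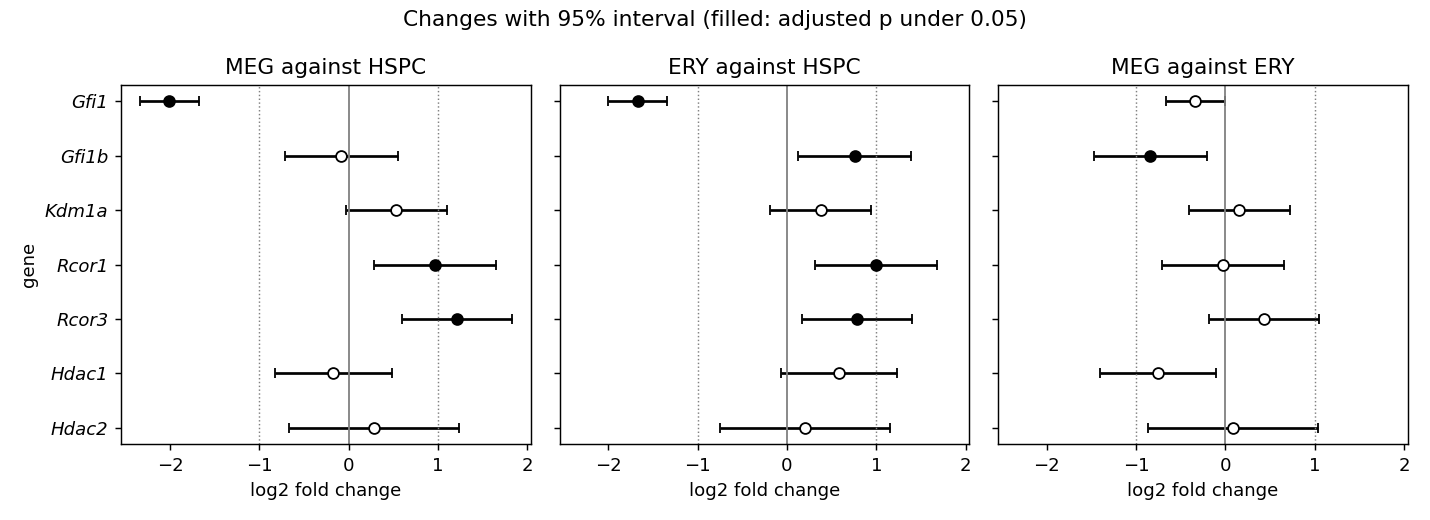
Log2 fold change (x axes) with its 95% interval for the 7 genes (y axis) in MEG against HSPC, ERY against HSPC and MEG against ERY, filled where the adjusted p was under 0.05, with dotted lines at a 2-fold change. Gfi1 lies at -2.01 and -1.67 against HSPC, and Gfi1b is the only filled gene between MEG and ERY.

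The counts of called members are given beside the background of all genes tested, and nothing particular to the members is read from them. In MEG against HSPC, 2 members rose (Rcor1 and Rcor3) and 1 fell (Gfi1), where 19.8% of all genes tested rose and 32.7% fell. 1 member was induced and 1 repressed, where 14.2% of all genes were induced and 18.7% repressed. In ERY against HSPC, 3 members rose (Gfi1b, Rcor1 and Rcor3) and 1 fell, against backgrounds of 20% and 32.6%. None was induced in ERY by limma, also at an unadjusted p under 0.05, and 1 was repressed, where 14% of all genes were induced and 20.2% repressed. Between MEG and ERY, no member was higher and 1 was lower by limma, where 20.9% of the 12066 stood higher and 20.1% lower. No member passed 2-fold in this comparison, where 14.6% of genes did so upwards and 12.6% downwards. At an unadjusted p under 0.05, no member was higher and 3 were lower (Gfi1, Gfi1b and Hdac1), though both Gfi1 means lay under the expression limit. The arrays of these 3 genes did not overlap between MEG and ERY, which was also so for 48% of all genes. Arrays did not overlap for Gfi1 and Rcor3 between MEG and HSPC (40.1% of all genes) or for Gfi1 and Gfi1b between ERY and HSPC (51.1%). The median change of the 7 genes was 0.29 in MEG and 0.58 in ERY against HSPC, beside -0.18 and -0.12 over all genes tested, and -0.03 in MEG against ERY, beside -0.04. For Gfi1 between MEG and ERY the change was -0.34 (adjusted p = 0.102), for Rcor3 0.43 (adjusted p = 0.257) and for Rcor1 -0.03 (95% interval -0.71 to 0.65, adjusted p = 0.954).

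Of 11 other tested genes on a list of CoREST complex and related genes, 3 rose and 1 fell in MEG against HSPC. In ERY against HSPC, 3 rose and 5 fell. Between the lineages, MEG had 5 of them above ERY and 3 below. Over all genes tested, 19.8% rose and 32.7% fell in MEG, 20% rose and 32.6% fell in ERY, and 20.9% were above and 20.1% below ERY in MEG, so that these small counts are a description of the list. With HSPC arrays 1 and 2 left out, 4 rose and 3 fell in MEG, and with HSPC arrays 3 and 4 left out 2 rose and none fell. The counts in ERY stayed at 3 and 5, but the genes called were not all the same. Rcor2, the third CoREST paralog, was under the expression limit in ERY (mean 5.19), where it was at least 4.59-fold lower than in HSPC (adjusted p = 5.8e-05). It changed by -0.50 in MEG (adjusted p = 0.365) and was at least 3.25-fold higher in MEG than in ERY (adjusted p = 0.00025). Phf21a, which encodes the BHC80 reader of unmethylated histone tails, rose by 1.20 in MEG (adjusted p = 0.0021) and fell by 1.38 in ERY (adjusted p = 0.00069). Zmym2 and Zmym3 encode zinc finger subunits: Zmym2 rose by 1.76 in MEG (adjusted p = 0.0079, and 0.76, no longer past the test, without HSPC arrays 3 and 4), and Zmym3 fell, with changes of -0.95 in MEG (adjusted p = 0.0047) and -2.42 in ERY (adjusted p = 2.7e-06). The MEG change of Zmym3 was -0.64 (adjusted p = 0.0638) without HSPC arrays 3 and 4, and Zmym2 in ERY, at 0.38 (adjusted p = 0.547), was 1.38 (adjusted p = 0.0023) without HSPC arrays 1 and 2 and -0.63 (adjusted p = 0.159) without HSPC arrays 3 and 4. Ctbp2, a corepressor of the same complex, fell by 1.46 in ERY (adjusted p = 0.00024) and was 1.68 higher in MEG than in ERY. The median change of the list was -0.28 in MEG and -0.39 in ERY, beside -0.18 and -0.12 over all genes tested.

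Among 8 tested genes for other GFI1 partners and silencing enzymes, none rose in MEG by limma (1 at an unadjusted p under 0.05) and 3 fell, none of them past 2-fold. In ERY 1 rose and 5 fell, beside the same shares over all genes as above, and the median change was -0.13 in MEG and -0.77 in ERY. The gene that rose was Runx1t1, which encodes the ETO corepressor. It was in the test only through ERY, where its mean was 9.86, against 5.10 in MEG and 5.11 in HSPC, both under the expression limit, so that it had to differ. It was at least 12.9-fold higher in ERY than in HSPC, and at least 12.9-fold lower in MEG than in ERY. Ehmt2, the histone methyltransferase G9a, fell, with changes of -0.87 in MEG (adjusted p = 0.0053) and -2.10 in ERY (adjusted p = 5.4e-06), with -0.52 in MEG (adjusted p = 0.0750) without HSPC arrays 3 and 4. Hdac3, another class I deacetylase, fell, with changes of -0.996 in MEG (adjusted p = 0.0016) and -1.46 in ERY (adjusted p = 7.6e-05). Hdac8 was 1.47 higher in MEG than in ERY (adjusted p = 7.6e-05).

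The NuRD and SIN3 complexes also hold HDAC1 and HDAC2. Of their 19 other genes, all tested, 5 rose and 8 fell in MEG, and 2 rose and 4 fell in ERY, each against HSPC and beside the same shares over all genes. Leaving out HSPC arrays 1 and 2, 7 rose and 7 fell in MEG and 7 rose and 4 fell in ERY, and with HSPC arrays 3 and 4 left out 2 rose and 6 fell in MEG and 1 rose and 3 fell in ERY. Mbd2, a methyl-CpG binding subunit of NuRD, rose by 1.55 in MEG (adjusted p = 0.00035) and 1.82 in ERY (adjusted p = 8.3e-05), and its paralog Mbd3 fell, with changes of -1.40 in MEG (adjusted p = 0.00103) and -0.85 in ERY (adjusted p = 0.0204), the ERY change being -0.60 (adjusted p = 0.162) without HSPC arrays 3 and 4. Rbbp4, a histone chaperone subunit of both complexes, fell by 1.10 in MEG (adjusted p = 7.3e-05), with 0.07 in ERY (adjusted p = 0.740). Sin3b, a SIN3 scaffold, fell by 1.15 in ERY (adjusted p = 0.00078) and was 1.39 higher in MEG than in ERY. The median change was -0.27 in MEG and 0.00 in ERY. Other SNAG domain factors were mostly near background, with 5 of 9 genes tested. By limma none passed the test against HSPC in MEG (1 at an unadjusted p under 0.05) or in ERY (0). Without HSPC arrays 1 and 2, 2 fell in MEG and 1 fell in ERY, and with HSPC arrays 3 and 4 left out 1 rose in MEG. Snai3, named after its values were seen, was the 1 gene higher in MEG than in ERY. It passed the limit only through MEG, where its mean was 6.30, against 5.59 in ERY, so that no more than a bound of at least 1.09-fold can be given.

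Genes described in the literature as GFI1 or GFI1B targets moved in both directions. Of 17 tested, 4 rose and 7 fell in MEG and 2 rose and 12 fell in ERY, each against HSPC, with a median change of -0.08 in MEG and -1.77 in ERY. Over all genes tested, 19.8% rose and 32.7% fell in MEG and 20% rose and 32.6% fell in ERY, with medians of -0.18 in MEG and -0.12 in ERY. When HSPC arrays 1 and 2 were left out, 4 rose and 7 fell in MEG and 2 rose and 11 fell in ERY, and with HSPC arrays 3 and 4 left out 4 rose and 4 fell in MEG and 2 rose and 10 fell in ERY. Elane, the neutrophil elastase gene, fell, with changes of -5.05 in MEG (adjusted p = 3.2e-07) and -5.20 in ERY (adjusted p = 1.4e-07), and it is also 1 of the neutrophil granule markers above. Myb, a progenitor transcription factor, fell, with changes of -2.67 in MEG (adjusted p = 0.00063) and -3.36 in ERY (adjusted p = 9e-05). The lineages parted at Rgs18, a regulator of G protein signalling in platelets, and at Meis1, a homeobox gene of stem cells and megakaryocytes. Rgs18 rose by 3.47 in MEG (adjusted p = 0.00019) and fell under the expression limit in ERY (mean 5.86), where it was at least 6.32-fold lower than in HSPC (adjusted p = 0.00052) and at least 69.8-fold lower than in MEG (adjusted p = 5.3e-07). Meis1 rose by 1.80 in MEG (adjusted p = 5.6e-05) and fell by 2.69 in ERY (adjusted p = 1.2e-06), a difference of 4.49 (adjusted p = 6e-09). Il7r, the lymphoid interleukin receptor gene and also 1 of the lymphoid markers, was under the limit in ERY (mean 5.44), where it was at least 2.64-fold lower than in HSPC (adjusted p = 0.0022), and it was at least 3.06-fold higher in MEG than in ERY (adjusted p = 0.0013).

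The genes tested whose profile over the 12 arrays was most like that of Gfi1 were Ppm1f, Rnf144a, S1pr3, Lrrn4 and Zfp623, with Pearson correlations of 0.98 to 0.99. Ppm1f, the closest, averaged 6.79 in MEG, 7.17 in ERY and 8.92 in HSPC. For Gfi1b the 5 closest were Prkab1, Slc7a5, B3gnt9, Ube2v1 and Ap1b1, with correlations of 0.90 to 0.94. Prkab1, a regulatory subunit gene of AMP-activated kinase, averaged 10.24 in MEG, 11.21 in ERY and 10.47 in HSPC. The 2 closest genes were Tiprl and Polb for Kdm1a, Map3k7 and Ap5m1 for Rcor1, Ing1 and Ttc1 for Rcor3, Immt and Ddx20 for Hdac1, and Gnl3 and Eif4e for Hdac2, with correlations of 0.96 to 0.99. These correlations describe 12 arrays from 3 populations, share the HSPC split described above and carry no test.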

How the data were processed

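Total RNA of 12 samples (MEG, ERY and HSPC, 4 each) was hybridized to Affymetrix arrays. The log2 values of 34760 probe sets were deposited by the authors after RMA, which corrects background, normalizes between arrays and summarizes probes, with version and settings not given in the sources used here. Array medians lay between 5.99 and 6.25. No raw intensities were used, and the number of arrays limits the precision. Of the probe sets, 21640 carried 1 symbol in the platform annotation and were used, while 1321 with several symbols and 11799 without annotation were left out. This gave 19937 genes, of which 954 had more than 1 probe set and 19855 had a RefSeq entry (GRCm38.p6).

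The expression limit of 6.18 was the 95th percentile of the highest population means of 1027 olfactory receptor genes, and 12066 genes passed it. limma 3.58.1 in R 4.3.3 was fitted to all 12 arrays with 1 mean per population, and p-values were adjusted by Benjamini-Hochberg over the genes tested. Paralog differences were tested with two-sided exact permutation tests in scipy 1.17.1. The fit was tested on simulated data. Pathway genes are named where they passed 2-fold at an adjusted p under 0.05 and were among the 3 largest changes of their list in a comparison. Values of these genes in other comparisons are given beside them. Snai3 did not pass 2-fold and is named outside this rule. Where 1 of 2 population means lay under the expression limit, the fold of a named gene is given as a bound against that limit, an alternative that was added after the data were seen, as were the second Hdac1 probe set and the HSPC arrays left out of the paralog differences and lists. Genes most like a member were chosen by Pearson correlation (5 for Gfi1 and for Gfi1b, 2 for each other member). The members and lists were chosen with earlier results of these data known. Some genes of the lists are not reported here. The labels number the replicates, but 5 of 12 same-numbered pairs correlated above 0.1, so the numbers were not taken as pairs. Alternatives covered the replicates left out, normalization, centring, probe set choice, variance model and thresholds. The study's chromatin maps were not used here.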

Additional observations from a re-analysis of the deposited data

Results flagged for a closer look

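Of the 21 groups of 4 arrays formed by the 7 genes and 3 populations, 2 held an array far from the others, with a gap to its nearest neighbour, as a share of the range of its group, beyond Dixon's 95% critical value. Chance gives such a gap in about 1 of 20 groups. Gfi1b on HSPC array 1 was at 9.93 with a gap of 0.871 of the range, and Rcor1 on ERY array 2 was at 9.70 with a gap of 0.899. Without HSPC array 1 the change of Gfi1b in ERY against HSPC was 0.45 (limma adjusted p = 0.0983). The change of Gfi1b from HSPC differed between the lineages, by -0.84 for MEG minus ERY (limma adjusted p = 0.0342).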

How the results depend on the processing

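Of 588 values (21 member results under 28 alternatives each), 491 kept direction and call, 34 lost and 31 gained a call, and 32 changed sign, all of the last from results without a call. Among those that changed sign, Hdac1 in MEG against HSPC passed the test with array weights (0.51, adjusted p = 0.0069). Gfi1 kept its calls against HSPC in all alternatives, but it was in the test through its level in HSPC and had to differ. Some alternatives, such as the second Hdac1 probe set, also leave its values as they are. With the replicate number as a block no member call changed, and the counts of members stayed at 2 rising and 1 falling in MEG and 3 and 1 in ERY. All genes induced and repressed then numbered 1732 and 2256 in MEG and 1694 and 2439 in ERY, against 1712 and 2259 in MEG and 1688 and 2441 in ERY without it. Leaving out 1 array at a time, MEG against HSPC ranged from -0.39 to 0.12 for Gfi1b, -0.379 to 0.0910 for Hdac1 and -0.113 to 0.700 for Hdac2, ERY against HSPC from -0.20 to 0.62 for Hdac2, and MEG against ERY from -0.0652 to 0.225 for Hdac2 and -0.114 to 0.0482 for Rcor1. Members induced ranged over 1 to 2 in MEG and 0 to 1 in ERY, members that rose over 1 to 3 in MEG and 1 to 4 in ERY, and members lower in MEG than in ERY over 0 to 2.

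With HSPC arrays 1 and 2 left out, 4 members rose and 4 were induced in MEG, 5 rose and 4 were induced in ERY, 3 were lower in MEG than in ERY, and Hdac1 was 0.27 in MEG against HSPC. With HSPC arrays 3 and 4 left out, 1 rose and 0 were induced in MEG, 1 rose and 1 (Gfi1b, 1.10) was induced in ERY, and 2 were lower in MEG than in ERY. Gfi1b was then 0.26 and Hdac2 -0.67 in MEG, and Kdm1a -0.11 and Hdac2 -0.76 in ERY. With MEG arrays 1 and 3 left out, 1 rose and 0 were induced in MEG, 0 were lower than in ERY, Gfi1b was 0.0688 and Hdac1 0.0049 against HSPC, and Kdm1a was -0.0130 against ERY. Centring on the genes tested moved all changes by 0.09 in MEG and 0.22 in ERY, with 2 members induced in each, 2 lower in MEG than in ERY, Gfi1b at 0.0080 in MEG and Hdac2 at -0.0480 in MEG against ERY. Centring on 30 ribosomal protein genes moved them by 0.48 in MEG and 0.44 in ERY, with 3 induced in MEG, 5 rising and 4 induced in ERY, Gfi1b at 0.40 and Hdac1 at 0.30 in MEG, and Rcor1 at 0.0034 in MEG against ERY. The share of induced among all called genes was then 72.4% in MEG and 66.3% in ERY, and 53.9% in ERY with centring on the genes tested, against 43.1% in MEG and 40.9% in ERY as reported. With quantile normalization Gfi1b was 0.0179 in MEG and Rcor1 0.0544 in MEG against ERY. With array weights 5 members rose and 3 were induced in MEG, 6 rose and 2 were induced in ERY, 1 was higher and 3 were lower in MEG than in ERY, Hdac1 was 0.51 in MEG and Rcor1 0.0078 in MEG against ERY. In fits of only the 8 arrays compared, 1 rose in MEG and 2 were lower in MEG than in ERY. At an FDR of 1%, 1 rose in MEG, 0 rose in ERY and 0 were lower in MEG than in ERY. At 1.5-fold, 2 were induced in MEG, 3 in ERY and 1 was repressed in MEG against ERY, and all genes repressed in MEG numbered 3610. All genes induced in MEG numbered 1084 without HSPC arrays 3 and 4 and 2602 with array weights. Without 1 array the exact permutation test of the paralog differences cannot go below p = 0.0571, and the change of Gfi1b minus Gfi1 ranged from 1.65 to 2.10 in MEG and from 2.16 to 2.57 in ERY against HSPC, and that of Hdac1 minus Hdac2 from -0.91 to -0.72 in MEG against ERY. The causes of these shifts were not tested.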
